A study of Mus musculus with 62 samples.

Results

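Etnppl encodes ethanolamine-phosphate phospho-lyase and Phyhd1 encodes a phytanoyl-CoA dioxygenase domain protein. Their levels in mouse cerebellum were followed here together with Pcyt2, Etnk1 and Pisd, other genes of phosphoethanolamine use and supply. All 5 genes were found among the 47643 symbols of the table, and all 5 were among the 14399 symbols with a mean of at least 1 TPM (transcripts per 1e+06 transcripts) that were tested. Etnppl and Phyhd1 had been selected on their high values in mice with cachectic melanoma at 6 and 8 weeks (wk), so those differences are a description and carry no test. Pcyt2, Etnk1 and Pisd were named for their place in the pathway, though with earlier results of these data known, and every comparison of them was tested.

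The series holds 62 RNA-seq libraries of cerebellum and concerns cachexia, a loss of body mass seen with some tumours. Female mice, 2 months old per the labels, were injected with melanoma cells that cause cachexia (CAC), with melanoma cells that do not (NCAC), or by mock injection (mock), and cerebellum was collected after 2, 4, 6 or 8 wk. There were 5 libraries in 11 of the 12 groups and 7 in CAC at 8 wk. The sample fields give the strain as C57BL6/J, the series design as NCI Ath/nude, and the treatment field, which names cachectic cells for every sample, was not used. The extraction protocol also mentions LLC cell injection, which no group label does, so which tumour cells were injected is taken from the group labels alone. No label says how many tumour cell clones were used, and none ties a library to a named animal, so the p-values measure only the spread between these samples.

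Ethanolamine kinases phosphorylate ethanolamine to phosphoethanolamine, and Pcyt2 couples it to CTP on the way to phosphatidylethanolamine, a main lipid of cell membranes. Pisd makes the same lipid in mitochondria by removing carbon dioxide from phosphatidylserine. Etnppl takes phosphoethanolamine out of this route: with pyridoxal phosphate as cofactor it splits it into acetaldehyde, ammonia and phosphate, and in the brain its transcript is known from astrocytes. Phyhd1 belongs to the dioxygenases that use iron and 2-oxoglutarate, as does Phyh, which starts the breakdown of phytanic acid in peroxisomes.

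The libraries held the transcripts of the labelled tissue. All 20 astrocyte and Bergmann glia markers had a mean of at least 1 TPM, from Sox9 at 34.3 to Aldoc at 1789, as did all 5 granule cell and all 4 Purkinje cell markers. Choroid plexus markers summed to between 15.8 and 7002 TPM over the libraries, and 1 of 5 melanocyte markers, Pmel, reached a mean of 1 TPM. One library stood apart: CAC replicate 3 of 8 wk had a red blood cell marker mean of 11 on the log2(TPM + 1) scale, where the remaining 6 CAC libraries of that week lay between 3.87 and 7.86. It also had the lowest mean of 14 glucocorticoid response genes among them, 5.97 against 6.38 to 6.96, where the mock libraries of 8 wk lay between 5.12 and 5.88. The differences of Etnppl and Phyhd1 that use this group are given with and without it.

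In the GENCODE M21 annotation (GRCm38, mm10) Etnppl lies at chr3:130617448-130637521 on the plus strand, with 6 transcripts. Phyhd1 lies at chr2:30266203-30282149 on the plus strand, with 13 transcripts. RefSeq (GRCm38.p6) promoter windows, 250 bases before to 50 after a transcript start, were matched for 4 of the 5 genes. The first window of each of the pair is printed here because their levels moved together across libraries, at chr3:130617198-130617497 and chr2:30265953-30266252, both plus strand, with capitals for any match to a searched motif.
Etnppl: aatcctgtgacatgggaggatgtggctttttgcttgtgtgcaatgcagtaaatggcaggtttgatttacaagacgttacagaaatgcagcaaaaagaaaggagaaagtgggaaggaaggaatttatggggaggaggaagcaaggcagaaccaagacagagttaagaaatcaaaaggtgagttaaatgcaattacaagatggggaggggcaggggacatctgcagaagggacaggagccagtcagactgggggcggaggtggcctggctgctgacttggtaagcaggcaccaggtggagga
Phyhd1: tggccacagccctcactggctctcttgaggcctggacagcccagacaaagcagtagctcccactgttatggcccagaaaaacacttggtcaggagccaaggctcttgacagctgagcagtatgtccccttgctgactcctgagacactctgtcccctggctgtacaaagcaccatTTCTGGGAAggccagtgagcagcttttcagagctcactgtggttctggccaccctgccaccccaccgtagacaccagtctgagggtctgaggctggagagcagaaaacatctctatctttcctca
The motifs, searched on both strands, were the glucocorticoid receptor half-site AGAACA, the full element (GNACA and TGTNC with 3 bases between them), a FOXO element GTAAACA, a STAT element TTCNNNGAA and the TATA box TATAAA. The Phyhd1 window held 1 match, to the STAT letters, at bases 176 to 184, which begins 75 bases before the start. Such a match stood in 8.29% of 32817 promoter windows of the same length. The Etnppl window held none of these letters, and the half-site was found in 19% of windows, the full element in 0.475%, the FOXO letters in 3.65% and the TATA letters in 13.6%. These matches describe the letters in the windows and are not measured sites.

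Etnppl was low in mock, with group means between 5.49 and 11.43 TPM. In mock at 8 wk the 5 libraries stood at 7.23, 7.36, 5.37, 8.67 and 14.8 TPM, and over all 20 mock libraries the range was 2.60 to 18.0 with a median of 8.50. In CAC at 2 wk the libraries stood at 5.61, 12.1, 9.30, 14.9 and 6.05 TPM, a mean of 9.58 ± 3.95 (SD, n = 5) against 5.49 ± 2.07 (SD, n = 5) in mock. These groups overlapped. At 4 wk the CAC libraries were at 13.1, 47.5, 14.8, 39.5 and 7.90 TPM, so replicates 2 and 4 were above every mock and NCAC library of the series while the other 3 lay within the mock range of that week, 4.53 to 18.0.

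At 6 wk Etnppl was at 72.2, 65.4, 44.7, 24.4 and 45.2 TPM in CAC and between 7.01 and 15.0 in mock. All 5 CAC libraries lay above the highest mock library. At 8 wk the 7 CAC libraries ran from 9.99 over a median of 64.1 to 91.5 TPM, a mean of 61.98 ± 25.9 (SD, n = 7) against 8.69 ± 3.61 (SD, n = 5) in mock. Here 6 of the 7 CAC libraries stood above all 40 mock and NCAC libraries of the series. CAC replicate 3, at 9.99 TPM, lay inside the mock range.

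Phyhd1 had a narrower range outside CAC. Its 20 mock libraries lay between 9.17 and 16.95 TPM with a median of 11.97. In CAC at 2 wk it stood at 12.2, 17.1, 15.1, 17.5 and 13.4 TPM, a mean of 15.1 ± 2.30 (SD, n = 5) against 12.4 ± 1.304 (SD, n = 5) in mock. At 4 wk the CAC libraries were at 17.5, 40.7, 16.1, 34.3 and 12.5 TPM, and the 2 high libraries were again replicates 2 and 4. At 6 wk they were at 51.7, 35.0, 38.8, 19.2 and 31.5 TPM, all above the mock libraries, which reached 16.95. At 8 wk they ran from 12.2 over a median of 42.7 to 66.1 TPM, a mean of 44.1 ± 17.1 (SD, n = 7) against 11.7 ± 1.16 (SD, n = 5) in mock. The lowest was once more replicate 3, which lay within the mock range.

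**Figure D1:**
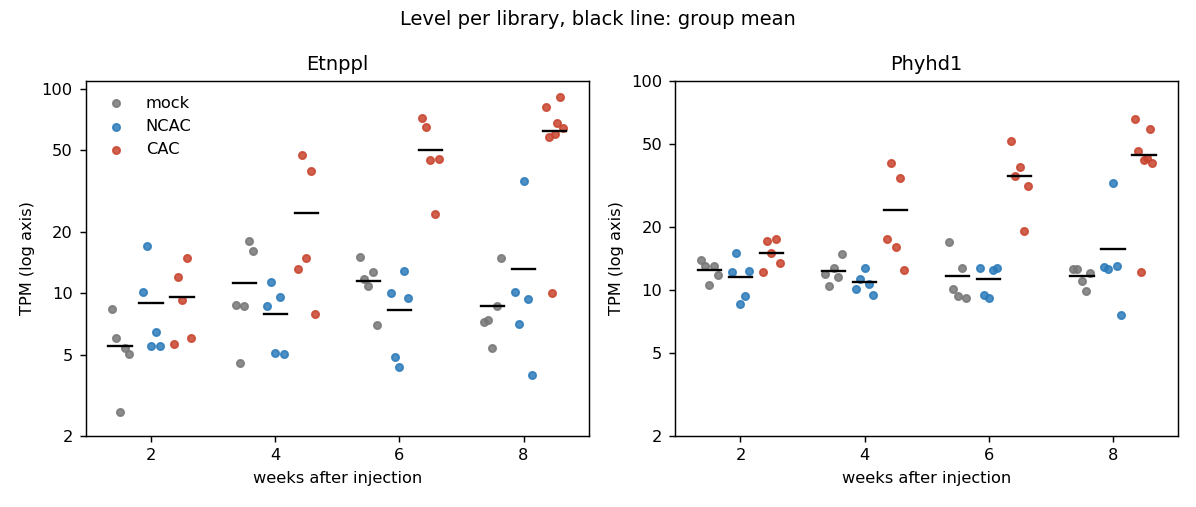
TPM of Etnppl and Phyhd1 in each of the 62 libraries by weeks after injection, on a log axis, with mock in grey, NCAC in blue and CAC in red and a black line at each group mean. From 6 wk the CAC points lie above the rest, except 1 CAC library at 8 wk (9.99 TPM for Etnppl, 12.2 for Phyhd1), and 1 NCAC library at 8 wk is high for both genes (35.2 and 32.3 TPM).

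Since the values at 6 and 8 wk chose this pair, their fitted differences are descriptive. On the log2(TPM + 1) scale, which understates changes of low genes, Etnppl was higher in CAC than in mock by 1.99 ± 0.446 (SE) at 6 wk and 2.55 ± 0.413 at 8 wk, and Phyhd1 by 1.48 ± 0.277 and 1.70 ± 0.256. Without CAC replicate 3 the differences at 8 wk were 2.94 and 1.97. At 6 wk both genes were among the 2.43% of tested genes whose CAC libraries all lay above mock, and among the 5.59% whose CAC libraries all lay above NCAC. Of all tested genes, limma with Benjamini-Hochberg adjustment called 1.72% at 6 wk (1.41% higher and 0.313% lower in CAC) and 20.8% at 8 wk (13.4% higher and 7.34% lower). Of the calls at 8 wk 64.7% were higher in CAC, against 50.4% with median-of-ratios scaling, 47.0% after quantile normalization and 41.8% when mitochondrially encoded genes were removed.

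The earlier weeks had not been used in the choice and were tested. At 2 wk the difference of CAC from mock was 0.69 ± 0.446 (SE) for Etnppl and 0.25 ± 0.277 for Phyhd1, and limma called neither (adjusted p = 1 for both), as it called 0.0% of all genes (697 at an unadjusted p under 0.05). At 4 wk the differences were 0.91 ± 0.446 and 0.79 ± 0.277, with adjusted p-values of 0.617 and 0.538 in limma and unadjusted ones of 0.0471 and 0.0059. In that comparison 0.00694% of tested genes, 1 gene, was called. At 4 wk the 95% confidence interval ran from 0.012 to 1.80 for Etnppl and from 0.24 to 1.35 for Phyhd1. Neither gene passed at 2 or 4 wk, and the CAC libraries of 4 wk were split, with replicates 2 and 4 far above the other 3. Those 2 libraries also had the highest glucocorticoid response means of their group, 6.86 and 6.49 against 5.17 to 5.98 in the other 3. The mock libraries of 4 wk had such means between 5.08 and 6.38, with Etnppl at up to 18.0 TPM and Phyhd1 at up to 14.9. The part of the glucocorticoid response in the values of the pair was not tested.

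The NCAC mice also received melanoma cells, and in them no difference from mock passed for the pair. In NCAC at 8 wk Etnppl stood at 10.1, 7.07, 35.2, 9.33 and 3.98 TPM and Phyhd1 at 12.9, 12.6, 32.3, 13.0 and 7.55. Replicate 3 was the high library for both, and the other 4 lay within or below the range of all mock libraries. Limma called none of the 5 genes in NCAC against mock in any of the 4 weeks or over the weeks together, with differences between -0.48 and 0.56 and adjusted p-values of at least 0.626. The smallest unadjusted p was 0.0750. Over the 4 weeks together the difference was -0.0090 ± 0.223 (SE; 95% confidence interval -0.46 to 0.44) for Etnppl and -0.015 ± 0.138 (-0.29 to 0.26) for Phyhd1.

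NCAC against mock called few genes. The share of tested genes called by limma in NCAC against mock was 0.0139% at 2 wk (2 genes) and 0.0% at 4, 6 and 8 wk and over the weeks together, where 306, 1202, 1038 and 573 genes had an unadjusted p under 0.05. At 8 wk the differences of NCAC from mock were 0.26 for Etnppl and 0.25 for Phyhd1 (adjusted p = 0.93 and 0.876 in limma), and without NCAC replicate 3 they were -0.16 and -0.042. CAC was above NCAC by 2.47 ± 0.446 (SE) for Etnppl and 1.503 ± 0.277 for Phyhd1 at 6 wk and by 2.29 ± 0.413 and 1.45 ± 0.256 at 8 wk (2.67 and 1.73 without CAC replicate 3), given without a test. In CAC against NCAC, limma called 0.0% of genes at 2 wk (987 at an unadjusted p under 0.05), 0.00694% at 4 wk, 9.45% at 6 wk and 11.8% at 8 wk. These comparisons share the CAC libraries with those against mock.

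Over time, and again only as a description, CAC libraries of 8 wk were above those of 2 wk by 2.44 ± 0.413 (SE) for Etnppl and 1.37 ± 0.256 for Phyhd1 (2.82 and 1.64 without CAC replicate 3), where 17.9% of tested genes were called. Between 2 and 8 wk the gap between CAC and mock grew by 1.87 ± 0.608 and 1.45 ± 0.377 (2.25 and 1.72 without that library), where 1.55% were called. With all libraries Etnppl was not among these calls, and mock at 2 wk was its lowest group. In mock, Etnppl differed by 0.57 ± 0.446 between 8 and 2 wk and Phyhd1 by -0.085 ± 0.277 (adjusted p = 0.749 and 0.952 in limma, 0.0% of genes called, 1211 at an unadjusted p under 0.05). In NCAC the differences were 0.28 ± 0.446 and 0.29 ± 0.277 (adjusted p = 0.81 and 0.666 in limma), where 0.0486% of genes were called.

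**Figure D2:**
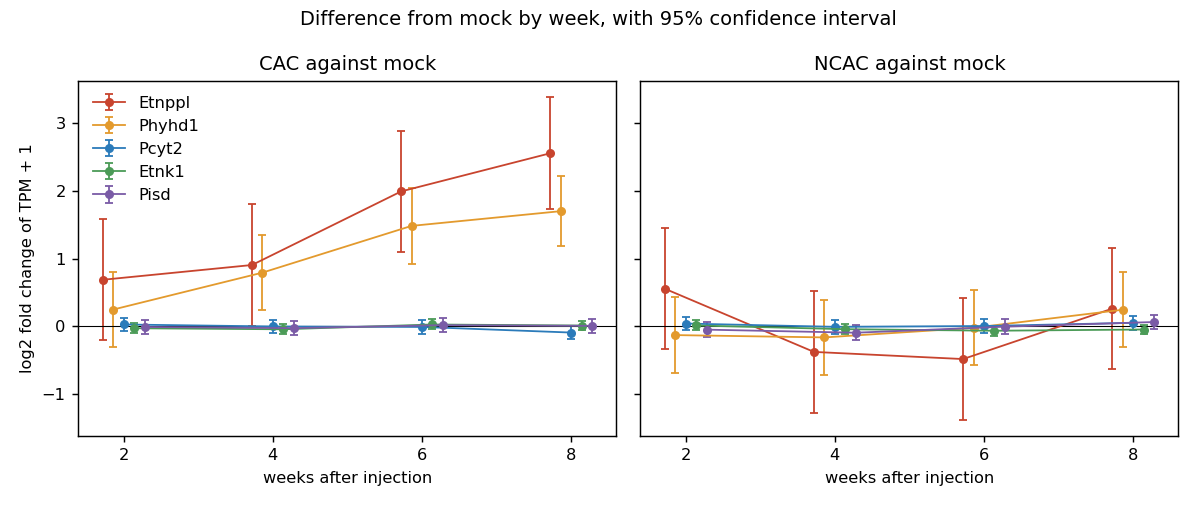
Log2 fold change of TPM + 1 against mock by weeks after injection, for CAC (left) and NCAC (right), with 95% confidence intervals from the limma fit of all 12 groups. Etnppl and Phyhd1 reach 2.55 and 1.70 in CAC at 8 wk, given as a description, while Pcyt2, Etnk1 and Pisd stay within 0.09 of 0 in CAC.

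Both genes had the same 4 groups at the top of the order of the 12 group means. For Etnppl it ran CAC at 8 wk, CAC at 6 wk and CAC at 4 wk, with means of 61.98, 50.4 and 24.6 TPM, then NCAC at 8 wk with 13.1. CAC at 8 wk and at 6 wk lay within 1 SD of each other, CAC at 6 wk was more than 1 SD above CAC at 4 wk, and all neighbours further down lay within 1 SD. For Phyhd1 the first 4 places were held by the same groups, at 44.1, 35.2, 24.2 and 15.7 TPM, and the step larger than 1 SD was that from CAC at 2 wk, 15.1, to mock at 2 wk, 12.4. The lowest groups were mock at 2 wk for Etnppl (5.49 TPM) and NCAC at 4 wk for Phyhd1 (10.9 TPM).

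TPM is a level per transcript length, so levels of different genes can be set side by side, within the limit that the Phyhd1 level is uncertain (exons shared with another gene model, described further on). Etnppl stood above Phyhd1 in 5 of 20 mock libraries and 4 of 20 NCAC libraries. In CAC it did so in 0 of 5 libraries at 2 wk, 2 of 5 at 4 wk, 5 of 5 at 6 wk and 6 of 7 at 8 wk. Against Phyhd1 summed with that gene model, Gm28035, Etnppl was above in 0 of 20 mock and 0 of 20 NCAC libraries, and in CAC in 0 of 5, 0 of 5, 3 of 5 and 4 of 7. Its level as a percentage of that of Pcyt2, which takes phosphoethanolamine towards lipid, had a median of 10.8% in mock and 13.4% in NCAC at 8 wk. In CAC the median went from 13.8% at 2 wk over 19.8% and 66.1% to 99.0% at 8 wk, with a range of 14.8% to 152% in that last group. Etnppl exceeded Pcyt2 in 1 of 5 CAC libraries at 6 wk and 3 of 7 at 8 wk, and in none of the 40 mock and NCAC libraries. This crossing follows from the high Etnppl values that chose the gene.

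The pair was chosen on differences between groups, and how libraries deviate inside their groups was not used. Each library's deviation from its own group mean was taken, and over 62 libraries the deviations of Etnppl and Phyhd1 had a Pearson r of 0.869 and a Spearman rho of 0.78. The permutation p, with values permuted within groups, was 1e-05 for both, the smallest that the 100000 resamples give, and 0.0001 after adjustment over the 10 pairs of members. Without the 2 libraries farthest from the median r was 0.804. Within treatments r was 0.547 in mock (n = 20), 0.859 in NCAC (n = 20) and 0.962 in CAC (n = 22), and 0.766 in NCAC without replicate 3 of 8 wk. By week it was 0.861, 0.801, 0.835 and 0.94 (n = 15, 15, 15 and 17).

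**Figure D3:**
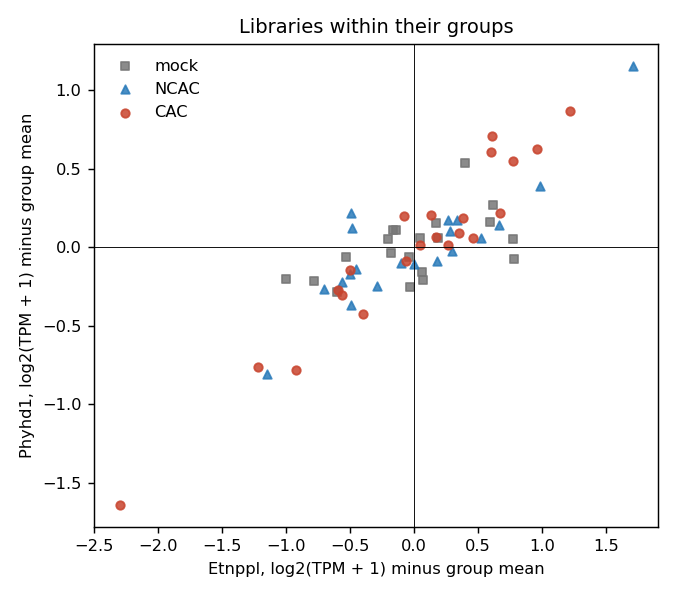
Deviation of each library from its group mean on the log2(TPM + 1) scale, with Etnppl on the x axis and Phyhd1 on the y axis, and mock, NCAC and CAC as squares, triangles and circles. The points follow a rising line (Pearson r 0.869, n = 62), with CAC replicate 3 of 8 wk at the lower left and NCAC replicate 3 of 8 wk at the upper right.

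Of the other 9 pairs of members none passed in these permutation tests (adjusted p from 0.053 to 0.82 for r, unadjusted from 0.0117 to 0.825). Etnppl had an r of -0.236 with Pcyt2, -0.060 with Etnk1 and -0.261 with Pisd, and Phyhd1 had -0.184, -0.036 and -0.183. None of these 6 passed, and with median-of-ratios scaling that of Etnppl with Etnk1 was 0.0012. Within CAC (n = 22) the r with Pcyt2 was -0.478 for Etnppl and -0.442 for Phyhd1, and rho was -0.634 and -0.599. In mock (n = 20) these r were 0.020 and 0.066, and in NCAC (n = 20) -0.155 and 0.027. The values within treatments were not tested. Libraries share the scaling of TPM, and with median-of-ratios scaling the r of Etnppl and Phyhd1 was 0.873.

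Phyhd1 values carry a limit. Gm28035, a gene model on the same strand, spans Phyhd1 and upstream Lrrc8a, a subunit of volume-regulated anion channels, and holds 47.0% of the exonic bases of Phyhd1 and shares 67.3% of its own with Lrrc8a. It is not stated how shared reads were divided between these genes, so the level of Phyhd1 is uncertain. At 8 wk Gm28035 averaged 7.47 ± 2.26 TPM over mock (SD, n = 5) and 15.4 ± 3.74 over CAC libraries (SD, n = 7), a rise of 0.96 ± 0.199 (SE; limma, adjusted p = 0.0004). Lrrc8a rose by 0.72 ± 0.121 (adjusted p = 2.94e-05, limma), from 50.2 ± 4.595 (SD, n = 5) to 84.95 ± 17.4 TPM (SD, n = 7). Both were looked at after seeing the values. With Phyhd1 and Gm28035 summed, an alternative chosen after seeing the data, the difference of CAC from mock was 1.20 at 6 wk and 1.49 at 8 wk.

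Pcyt2, the enzyme that activates phosphoethanolamine with CTP for lipid synthesis, did not pass between CAC and mock at 8 wk with the main settings, and was lower in CAC than in NCAC. The gene lies at chr11:120610087-120617936 on the minus strand. The 5 mock libraries of 8 wk were at 66.9, 73.7, 64.4, 66.3 and 69.2 TPM, the 5 NCAC libraries at 75.2, 69.2, 69.4, 68.8 and 70.7, and the 7 CAC libraries ran from 60.2 over 63.8 to 68.8. The CAC and mock libraries overlapped, and the CAC and NCAC ranges met at 68.8 TPM, the highest CAC and the lowest NCAC value. CAC averaged 63.9 ± 3.17 TPM (SD, n = 7), mock 68.1 ± 3.55 (SD, n = 5) and NCAC 70.6 ± 2.63 (SD, n = 5). Against mock the difference was -0.090 ± 0.047 (SE; 95% confidence interval -0.18 to 0.0046), with an adjusted p of 0.172 in limma and an exact two-sided permutation p of 0.0657.

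With other scalings the same difference passed. It was -0.11 with median-of-ratios scaling (adjusted p = 0.0463), -0.12 with quantile normalization (adjusted p = 0.0267) and -0.12 without mitochondrially encoded genes (adjusted p = 0.0345), all in limma. Against NCAC Pcyt2 fell by 0.14 ± 0.047 (SE; adjusted p = 0.0364 in limma), a call that was lost in a fit on the compared groups alone (adjusted p = 0.0555), without a filter on low values (0.0549) and without any 1 of CAC replicates 1, 2, 4 or 6 or NCAC replicates 1, 2, 4 or 5 (0.0514 to 0.117). Within CAC it fell by 0.23 ± 0.047 from 2 to 8 wk (adjusted p = 0.000386 in limma), from 75.3 ± 6.84 TPM (SD, n = 5). Over the same interval mock differed by -0.11 and NCAC by -0.10 (adjusted p = 0.556 and 0.369 in limma), and the difference between the CAC and mock changes, -0.12 ± 0.069, did not pass (adjusted p = 0.392 in limma).

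Etnk1, the main ethanolamine kinase, is annotated at chr6:143167221-143232307 on the plus strand and was the most abundant of the 5 genes. Its 12 group means lay between 106 and 115 TPM, and its 62 libraries between 102 and 124. CAC averaged 110.9 ± 5.86 TPM (SD, n = 7) at 8 wk, mock 109.8 ± 5.40 (SD, n = 5) and NCAC 106.4 ± 3.14 (SD, n = 5). The difference of CAC from mock was 0.014 ± 0.034 (SE; 95% confidence interval -0.055 to 0.082; adjusted p = 0.821 in limma). Its sign turned under each scaling alternative, so no direction is given.

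Pisd, the mitochondrial decarboxylase, lies at chr5:32736301-32785646 on the minus strand. Its group means lay between 27.4 and 29.9 TPM. At 8 wk CAC averaged 28.8 ± 2.04 TPM (SD, n = 7) and mock 28.6 ± 1.63 (SD, n = 5), a difference of 0.0092 ± 0.050 (SE; 95% confidence interval -0.090 to 0.11; adjusted p = 0.922 in limma), and its sign also turned with the scaling. Limma called neither Etnk1 nor Pisd in any of the 17 comparisons, with sizes up to 0.12 and adjusted p-values of at least 0.0957. The smallest unadjusted p was 0.0151, for Etnk1 in CAC against NCAC at 6 wk. Pisd has the transcribed pseudogenes Pisd-ps1 and Pisd-ps2, with means of 36.2 and 11.9 TPM, and how reads were divided among these copies is not stated. Summed with both, an alternative chosen after seeing the data, it averaged 84.2 ± 15.7 TPM over CAC libraries of 8 wk (SD, n = 7) and 75.3 ± 10.6 over mock (SD, n = 5; adjusted p = 0.422 in limma). From 2 to 8 wk in CAC the sum rose by 0.40 (adjusted p = 0.0213 in limma), where Pisd alone differed by 0.020 (adjusted p = 0.831), so what is said of Pisd holds for its own values only.

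**Figure D4:**
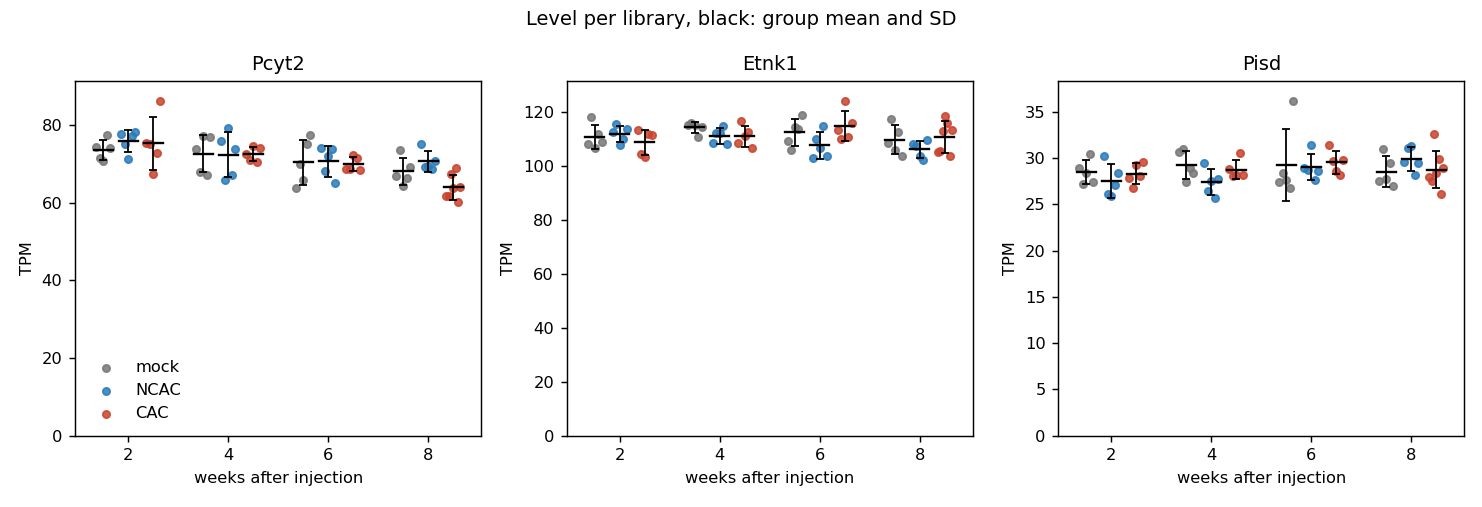
TPM of Pcyt2, Etnk1 and Pisd in each library by weeks after injection, from 0, with the group mean and SD in black. Pcyt2 is lowest in CAC at 8 wk (63.9 TPM), while the group means of Etnk1 and Pisd lie within 106 to 115 and 27.4 to 29.9 TPM.

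The wider route of ethanolamine lipids was described with a list of 20 genes, of which 19 were tested. Etnppl is 1 of the 19 and was chosen on its own values, so the count is given over the other 18. At 8 wk 2 of the 18 were higher and 2 lower in CAC than in mock by limma, with a median difference of -0.0052, beside 0.021 over all genes and the 20.8% called. The 4 calls are a share near that of all genes. The higher genes were Etnk2 and Slc44a2. Etnk2, a second ethanolamine kinase, is a low transcript. It stood at 1.88, 1.48, 1.66, 1.62 and 2.18 TPM in mock and from 2.53 over 4.05 to 6.06 in the 7 CAC libraries. It rose by 0.83 ± 0.129 (SE; adjusted p = 8.18e-06 in limma) against mock and by 0.58 against NCAC (adjusted p = 0.0016 in limma). Slc44a2, a choline transporter-like protein, rose by 0.22 (adjusted p = 0.0019 in limma).

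The 2 lower genes changed by little. Phospho1, a phosphatase of phosphoethanolamine and phosphocholine, fell by 0.16 (adjusted p = 0.0402 in limma), and Gdpd1, a phosphodiesterase that cleaves lysophospholipids, by 0.14 (adjusted p = 0.00063). The call of Phospho1 was lost in 9 of 22 alternatives (adjusted p = 0.0505 to 0.108 in limma), among them the fit without a filter and each fit that left out 1 of CAC replicates 1, 4, 5 and 6 and mock replicates 1, 3 and 4. The number of lower members was 5 or 6 with the other scalings and 3 without CAC replicate 3, and that of higher members among the 18 was 2 under each of these settings. Ptdss1, Ptdss2 and Cept1, which make phosphatidylserine and join the last step to phosphatidylethanolamine, had differences of 0.027, -0.020 and -0.092 (adjusted p = 0.51, 0.725 and 0.0826 in limma). Cept1 passed as lower with the other scalings, at -0.11 with median-of-ratios, -0.13 with quantile normalization and -0.13 when mitochondrially encoded genes were removed (adjusted p = 0.0144, 0.0075 and 0.0099 in limma). At 6 wk limma called 0 of the 18 (2 at an unadjusted p under 0.05), where 1.72% of all genes were called.

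In the choline branch of the same pathway 4 of 8 genes were higher at 8 wk and 0 lower, with a median difference of 0.081, where 13.4% of all genes were higher and 7.34% lower. Of these 4 calls 3 stood after median-of-ratios or quantile normalization, and 2 when mitochondrially encoded genes were removed. Chka, a choline kinase that also accepts ethanolamine, rose from 30.4, 34.4, 31.0, 34.2 and 39.1 TPM in mock to between 45.0 and 52.2 in CAC, by 0.50 ± 0.090 (SE; adjusted p = 7.24e-05 in limma). Chpt1, the cholinephosphotransferase, rose by 0.23, the kinase Chkb by 0.22 and the phosphodiesterase Gpcpd1 by 0.15 (adjusted p = 0.0022, 0.0252 and 0.0366 in limma). Gpcpd1 lost its call with each other scaling (limma, adjusted p = 0.0625 to 0.114), and Chkb without mitochondrially encoded genes (adjusted p = 0.0568). Against NCAC at 8 wk 1 of the 8 was called, Chka, at 0.43 (adjusted p = 0.000895 in limma), where 11.8% of all genes were called. Against mock at 6 wk 0 of the 8 were called, where 1.72% of all genes were.

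**Figure D5:**
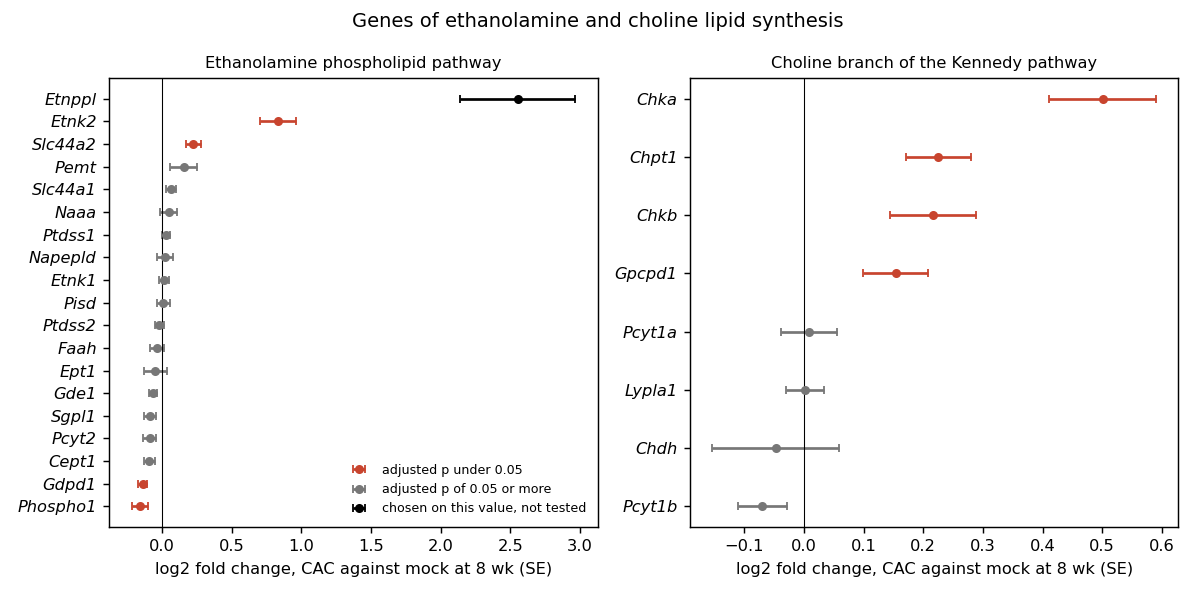
Log2 fold change of CAC against mock at 8 wk with its SE for 19 genes of ethanolamine lipids (left) and 8 of the choline branch (right), in red where the adjusted p is under 0.05. Etnppl, in black because it was chosen on this value, stands at 2.55, next to Etnk2 at 0.83, while 14 of the other 18 genes did not pass.

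Genes for the products and cofactor of the Etnppl reaction were listed as well. Of 10 genes of acetaldehyde and ammonia use 2 were higher at 8 wk and 0 lower, with a median of 0.053, a share near the 20.8% of all genes called, and 1 was higher after quantile normalization and when mitochondrially encoded genes were removed, with 1 lower in the latter, Aldh1b1. Glul, glutamine synthetase, which binds ammonia in astrocytes, averaged 845 ± 52.0 TPM over mock (SD, n = 5) and 1409 ± 224 over CAC libraries (SD, n = 7), a rise of 0.72 ± 0.132 (SE; adjusted p = 9.43e-05 in limma). CAC replicate 3 was again the lowest of its group, at 962 TPM, and without it the rise was 0.81. The aldehyde dehydrogenase Aldh2 and the alcohol dehydrogenase Adh5 had differences of 0.049 and 0.058 (adjusted p = 0.636 and 0.156 in limma). Adh1, a low transcript, averaged 1.61 ± 0.463 TPM over mock (SD, n = 5) and 2.70 ± 0.759 over CAC libraries (SD, n = 7). Its difference of 0.50 ± 0.240 (SE) did not pass (adjusted p = 0.134 in limma), nor did that of 0.61 against NCAC (adjusted p = 0.0901 in limma). Of 6 tested genes of pyridoxal phosphate supply and use, limma called 0 (0 at an unadjusted p under 0.05), with adjusted p-values of at least 0.273 and a median of 0.018. After quantile normalization 1 passed as lower, Prosc, at -0.11 (adjusted p = 0.0329 in limma).

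Relatives of Phyhd1 were looked at in the same way. Of 10 tested genes of the phytanoyl group and peroxisomal alpha-oxidation 2 were higher and 0 lower at 8 wk, with a median of -0.079, a share near the 20.8% of all genes called. Phyhip, a partner protein of Phyh, rose by 0.25 ± 0.051 (SE; adjusted p = 0.00029 in limma) and Acox3, an oxidase of branched acyl chains, by 0.16 (adjusted p = 0.0202). When mitochondrially encoded genes were removed Acox3 lost its call (adjusted p = 0.0717 in limma), and Phyhipl passed as lower with each of the 3 other scalings, by -0.12 to -0.14 (adjusted p = 0.011 to 0.027 in limma). Phyh itself had a difference of 0.024 ± 0.039 (adjusted p = 0.714 in limma). Whether these differences differ from that of Phyhd1 was not tested, since Phyhd1 was selected on its own.

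Markers of the cells in which Etnppl is known were given beside it. In bulk tissue, fewer cells of a type and less RNA per cell cannot be told apart. The 20 astrocyte and Bergmann glia markers summed to between 5911 and 6551 TPM in CAC at 8 wk, between 5700 and 5985 in mock and between 5621 and 6090 in NCAC. On the log2(TPM + 1) scale their mean was 7.43 ± 0.0099 over mock (SD, n = 5) and 7.40 ± 0.061 over CAC libraries (SD, n = 7). Of the 20, limma called 8 higher and 4 lower, with a median of 0.098, where 13.4% of all genes were higher and 7.34% lower. Fgfr3, a growth factor receptor, rose by 0.41 and Aldoc, a glycolytic aldolase, by 0.27, while Slc7a10, a serine and alanine transporter, fell by 0.44 and Fabp7, a fatty acid binding protein, by 2.01 (adjusted p = 0.0001, 0.00033, 6.4e-06 and 3.8e-05 in limma). The call of Aldoc was lost with quantile normalization (adjusted p = 0.103 in limma). Aldoc is the highest of the 20 markers and so weighs most on their sum. It averaged 1756 ± 113 TPM over mock (SD, n = 5) and 2115 ± 149 over CAC libraries of 8 wk (SD, n = 7).

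Other cell types moved with the groups too. Of 6 oligodendrocyte markers 5 were lower in CAC at 8 wk and 0 higher, with sums of 1851 to 2361 TPM in CAC and 2296 to 3096 in mock, and of 6 microglia markers 3 were lower and 0 higher, with sums of 121.5 to 150.9 and 131 to 206 TPM, beside the 7.34% of all genes that were lower. The number of microglia markers lower than in mock was 5 after quantile normalization and when mitochondrially encoded genes were removed. Against NCAC at 8 wk limma called 3 of the 6 oligodendrocyte markers lower and 0 of the 6 microglia markers, where 11.8% of all genes were called. The NCAC sums were 2375 to 2704 and 118.7 to 139.8 TPM. Mock at 8 wk had the highest microglia mean of the 12 groups, 4.20 ± 0.271 on the log2(TPM + 1) scale (SD, n = 5). Of 5 endothelial markers 1 was higher, Slco1a4, and of 8 choroid plexus markers limma called 0 (1 at an unadjusted p under 0.05). The red blood cell sum ranged from 128 to 20420 TPM in CAC at 8 wk, the highest in replicate 3. How these markers ran with the pair inside groups is given with the list means that follow, and their part in the differences between CAC and mock was not tested, apart from a fit with the choroid plexus mean as a covariate.

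Within groups, the deviations of Etnppl ran with the mean deviation of the 14 glucocorticoid response genes, with a Pearson r of 0.685 and a Spearman rho of 0.651 over 62 libraries (permutation p = 1e-05 and 2e-05, adjusted p = 0.00011 and 0.00032 over 32 relations). For Phyhd1 r was 0.575 and rho 0.439 (permutation p = 7e-05 and 0.00135, adjusted p = 0.00056 and 0.0072). Without the 2 libraries farthest from the median of the list these r were 0.634 and 0.492. Of these 14 genes 13 were higher and 0 lower in CAC than in mock at 8 wk, with a median of 1.08. Over all tested genes 13.4% were higher and 7.34% lower. Mt2 and Mt1, metallothioneins that bind zinc, stood at 1.72 and 1.52, the kinase Sgk1 at 1.21 and Ddit4, an inhibitor of mTOR signalling, at 0.81. This list was drawn up with earlier results of these data known, so its count is a description. The permutation p-values of its mean carry the same limit. That mean holds Mt1 and Mt2, whose own r was 0.867 and 0.775 with Etnppl and 0.831 and 0.675 with Phyhd1. It was not taken without them. The highest r with a list mean was that with the 8 choline branch genes, 0.726 for Etnppl and 0.671 for Phyhd1, with rho of 0.648 and 0.517 (permutation p = 1e-05 for all but the last, 8e-05; adjusted p = 0.00011 for both r and 0.00032 and 0.00085 for rho). With the mean of the 20 astrocyte markers r was -0.383 for Etnppl and -0.407 for Phyhd1 (permutation p = 0.0099 and 0.0094, adjusted p = 0.029 for both), and rho was -0.351 and -0.334 (permutation p = 0.0101 and 0.0164, adjusted p = 0.032 and 0.048). That mean holds Aqp4 and Fabp7, both among the genes of lowest r with the pair, and was not taken without them. The granule cell marker mean had an r of -0.471 and -0.49 and a rho of -0.462 and -0.416 with the pair (adjusted permutation p = 0.0039 and 0.0021 for r, 0.0046 and 0.008 for rho). The oligodendrocyte mean had an r of -0.370 with Etnppl and -0.301 with Phyhd1 and a rho of -0.391 and -0.319 (adjusted permutation p = 0.019 and 0.069 for r, 0.013 and 0.049 for rho), and that of acetaldehyde and ammonia use 0.447 and 0.394 (0.0041 and 0.018). The red blood cell mean had an r of -0.337 and -0.397 and a rho of -0.115 and -0.103 (adjusted permutation p = 0.17 and 0.16 for r, 0.61 and 0.63 for rho). The acetaldehyde and ammonia mean holds Glul, whose own r was 0.796 with Etnppl and 0.71 with Phyhd1, and was not taken without it. The relations with the other 9 lists, among them microglia, endothelium and choroid plexus, did not pass for either gene. Without the 2 libraries farthest from the median of the list r was -0.333 and -0.385 for astrocyte, -0.431 and -0.407 for granule cell, and -0.337 and -0.277 for oligodendrocyte markers.

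The genes whose pattern was most like each of the pair were named by the highest Pearson r, as a description. Over the 12 group means those most like Etnppl were Pias1, Cyp2d22, Smad9, Itih3 and Glul (r of 0.983, 0.983, 0.982, 0.981 and 0.979), and those most like Phyhd1 were Lrg1, Nbl1, Sparc, Col5a3 and Abca2 (0.993, 0.988, 0.98, 0.98 and 0.978). Over the deviations of 62 libraries those most like Etnppl were Sult1a1, Prodh, Folh1, Phyhd1 and Mt1 (0.9, 0.888, 0.888, 0.869 and 0.867). For Phyhd1 they were Prodh, Itih3, Ahcyl1, Ttyh1 and Fam213a (0.906, 0.903, 0.897, 0.887 and 0.88). Prodh, a proline dehydrogenase, stood at 42.3 TPM in CAC and 14.3 in mock at 8 wk, and Sult1a1, a sulfotransferase, at 50.4 and 9.45. Among 13207 genes ranked by deviations Phyhd1 was in place 4 for Etnppl, and Etnppl in place 7 for Phyhd1. At the other end, Aqp4, the water channel of astrocytes, had the lowest r of all ranked genes with both, -0.89 and -0.87, and was picked out after its values were seen.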

How the data were processed

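RNA of 62 cerebellum libraries was extracted with Trizol and sequenced on an Illumina NovaSeq instrument after a TruSeq stranded mRNA kit, per the labels' protocols. The authors deposited 1 table of TPM values per gene symbol, which total 1e+06 in each library. The mm10 build is per the submitters' processing notes, and no source used here names the aligner or says how shared reads were treated. TPM keeps no read depth, so no counting error could be given.

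Values were set to log2(TPM + 1), and 14399 of 47643 symbols with a mean of at least 1 TPM were fitted over 12 groups in 1 model with limma 3.58.1 (R 4.3.3, 50 residual degrees of freedom, Benjamini-Hochberg threshold 0.05), for 17 comparisons. The script was tested on simulated data. Deviations from group means were correlated in Python 3.11.15 with scipy 1.17.1 and numpy 2.4.6, with permutation within groups. The members and the 16 gene lists (141 genes) were chosen with earlier results of these data known. The rule for naming took all 5 members, up to 4 genes of each list with the smallest p in CAC against mock at 8 wk, and the 5 genes of highest r for likeness, clone and predicted names left out. Phospho1, Ptdss1, Ptdss2, Cept1, Aldh2, Adh5, Phyh, Aqp4, and the genes that share reads fall outside it and were named after their values were seen. Alternatives were another pseudocount (0.1), filter, scaling, covariate, block or sample weight, and leaving out each library. One gene that passed in the list of acetaldehyde and ammonia use is not reported here.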

Additional observations from a re-analysis of the deposited data

Results flagged for a closer look

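A sample far from the others of its group was found in 3 of 60 groups of values tested over the 5 genes, and chance gives about 3. CAC replicate 3 of 8 wk was low for Etnppl, at 9.99 TPM, and for Phyhd1, at 12.2 TPM, beside medians of 64.1 and 42.7 TPM in that group. The same library had the highest red blood cell marker mean and the lowest glucocorticoid response mean of the group, and the part of either in these low values was not tested. Mock replicate 5 of 6 wk was high for Pisd, at 36.2 TPM.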

How the results depend on the processing

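Of 496 values of 21 results under the alternatives, 458 kept their direction and their side of the threshold or moved by less than the limits set. Pcyt2 in CAC against mock at 8 wk was -0.11, -0.12 and -0.12 (-0.1124, -0.1222 and -0.1249) with median-of-ratios scaling, quantile normalization and mitochondrially encoded genes removed, and then passed. With the same 3 settings Etnk1 turned to -0.0092, -0.0085 and -0.021 and Pisd to -0.013, -0.024 and -0.025. Pcyt2 in CAC against NCAC lost its call at -0.14 without a filter and in a fit on the compared groups alone, and at -0.13 (adjusted p = 0.129 in limma) with the replicate block. Ethanolamine list members called lower numbered 1 without a filter and with the replicate block, and 5 with median-of-ratios scaling. They numbered 6 after quantile normalization and when mitochondrially encoded genes were removed. Leaving out 1 library at a time gave -0.16 to 0.55 for Etnppl and -0.042 to 0.45 for Phyhd1 in NCAC against mock at 8 wk. It gave -0.0054 to 0.038 for Etnk1, -0.020 to 0.038 for Pisd, -0.16 to -0.12 for Pcyt2 against NCAC and 1 to 3 lower list members. The cause was not tested. Replicate numbers are only shared numbers: 16 of 60 same-numbered pairs correlated above 0.1, and in 0 of 12 comparisons did all pairs do so.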
